A study of Mus musculus with 23 samples.

Results

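The Hox cluster genes are the homeobox genes named Hoxa, Hoxb, Hoxc or Hoxd with a number from 1 to 13. They were picked by the gene name printed in the scanner files of 23 mouse small intestine arrays. The array held 39 of them, on 44 probes, among 34741 genes and 55681 probes in all. Of the 39, 16 genes gave enough signal to be followed over the mice.

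Hox genes code for homeodomain transcription factors that lie in 4 clusters on different chromosomes. Within a cluster the genes stand in the order in which they are switched on along the head-to-tail axis of the embryo, low numbers at the front and high numbers at the back, and genes with the same number in different clusters are paralogs. In the adult gut the mesenchyme and muscle under the epithelium keep a Hox code that differs along its length, and caudal homeobox factors such as Cdx1 and Cdx2 act on Hox genes in the intestine.

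The mice were adult male C57BL/6J animals with no transgene named in the labels. All had 3 weeks on a normal-fat diet and then 12 weeks on a high-fat diet, alone in the HF group (12 mice) or with 0.33% quercetin by weight, a plant flavonol, in the HF-Q group (11 mice). On each array, RNA scraped from the small intestine of 1 mouse was labelled with Cy5 and read beside a common Cy3 reference pooled from the same animals, always in this dye orientation. A level here is the log2 ratio of a mouse to that pool, so values of different probes are not set against each other. The RNA protocol in the labels mentions liver. Of 6 hepatocyte markers, Ahsg and Mup3 were well above background on 0 arrays and Fgb and Hpx on 2, while all 7 enterocyte markers were so on 23. Alb was seen on 11 arrays and Serpina1a on 23. The scraping is a bulk sample, in which fewer cells of a type and less RNA per cell cannot be told apart. Nor do the labels say which stretch of the small intestine each scraping covered.

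Detection followed the clusters. A gene counts as measured where a probe was well above background in Cy5 in 50% or more of the HF arrays or of the HF-Q arrays. That held for 16 of 39 Hox genes (41.0%) and 17 of 44 Hox probes (38.6%), beside 52.5% of all probes. Cluster B was the fullest, with 8 of 10 genes measured, Hoxb2 to Hoxb9 without a gap. Cluster A had 6 of 11 (among them Hoxa3, Hoxa4, Hoxa6, Hoxa7 and Hoxa9) and cluster C 2 of 9 (Hoxc4 and Hoxc6). Cluster D had 0 of 9, with 8 of its genes above background on 0 arrays and Hoxd11 on 2.

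By position within the clusters, 4 of 8 genes with numbers 1 to 3 were measured, 12 of 19 with numbers 4 to 9, and 0 of 12 with numbers 10 to 13. In clusters A, B and C the middle numbers, 4 to 9, gave 12 of 16. Of the 12 genes at the posterior ends, 9 were above background on 0 arrays. The others were Hoxc10 on 6 arrays (5 HF and 1 HF-Q), Hoxd11 on 2 and Hoxc13 on 1. Hoxb13, a posterior gene known from the hindgut, and Hoxb1, a hindbrain gene, were among those on 0 arrays. The 8 genes above background on all 23 arrays were Hoxa6, Hoxa7, Hoxb4, Hoxb5, Hoxb6, Hoxb7, Hoxc4 and Hoxc6. Another 14 passed on some arrays only. Among these Hoxb2 and Hoxa3 passed on 22, Hoxb9 on 21, Hoxb3 on 20, Hoxa4 and Hoxa9 on 18, and Hoxb8 on 17. Hoxa5 passed on 3 arrays, all HF, and Hoxc5 on 5. A gene under this limit may still be expressed, since detection depends on the probe, and Hoxa9 had a second probe that was above background on 0 arrays.

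**Figure D1:**
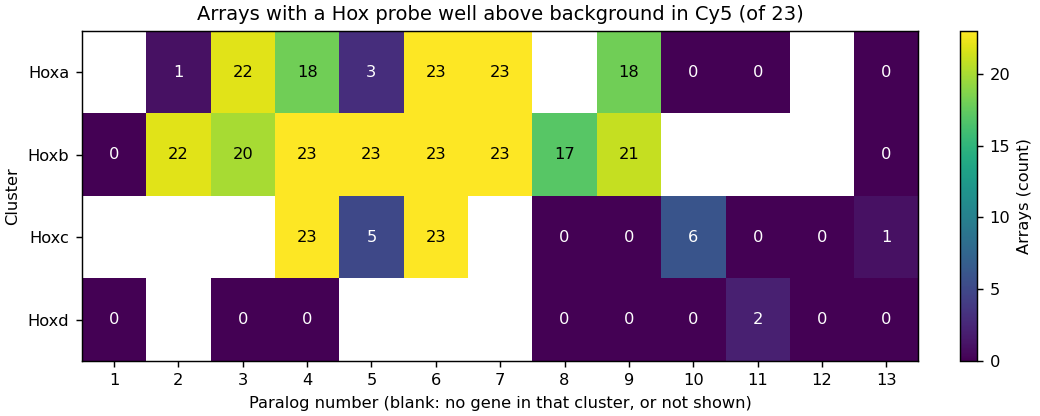
Number of arrays, of 23, on which the best probe of Hox genes was well above background in Cy5, with clusters in rows and paralog numbers in columns; white marks positions without a gene in that cluster or not shown. Counts are high for Hoxb2 to Hoxb9 and for the middle of cluster A, 23 for Hoxc4 and Hoxc6, and 6 or fewer for all genes numbered 10 to 13.

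The probes of the genes on which the results turn are shown by their first 30 bases, since paralogs of this family are alike and a reader may want to see which stretch was hybridised. Per the file headers they lie at chr11:96151211-96151270 (Hoxb7), chr11:96146576-96146635 (Hoxb8), chr11:96137748-96137807 (Hoxb9) and chr15:102842243-102842302 (Hoxc6), all on the plus strand of mm9.
Hoxb7 probe: gttgctagtaaggtctttgtaaaatcttgc
Hoxb8 probe: ttctgttgtctgcgcctgaaaagggcggaa
Hoxb9 probe: gcttgtgttttgtgatttctttggcagtga
Hoxc6 probe: cctcctgtataaatccgacctctggatccg

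RefSeq promoters on GRCm38.p6 were at hand for 22 Hox genes, 7 of them measured (Hoxa3, Hoxa6, Hoxa7, Hoxa9, Hoxb4, Hoxb8 and Hoxc4). Their 250 bases before the start were searched on both strands for TTTATNG, the core bound by caudal homeobox factors. It also overlaps the AT-rich cores of other homeodomain factors. Of 32851 promoters, 3223 held it (9.81%). Of 24 promoters of these Hox genes 2 held it, those of Hoxb8 and Hoxd4, a share near that of all promoters. Among the 7 measured Hox genes Hoxb8 held it, with 3 matches. At least 3 matches, a limit that is the count of Hoxb8 itself, were in 16 promoters (0.0487%). Hoxb8 (chr11:96281655-96281904, plus strand) and Hoxc4 (chr15:103034145-103034394, plus strand) are printed because they stand for the 2 patterns described next. Capitals mark the matches, all on the printed strand, which begin 199, 120 and 110 bases before the start of Hoxb8.
Hoxb8 promoter: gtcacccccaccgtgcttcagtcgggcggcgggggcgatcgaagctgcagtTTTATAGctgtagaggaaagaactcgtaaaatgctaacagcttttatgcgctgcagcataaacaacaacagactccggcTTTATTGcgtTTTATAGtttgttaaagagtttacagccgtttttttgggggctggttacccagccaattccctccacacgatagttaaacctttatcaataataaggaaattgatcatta
Hoxc4 promoter: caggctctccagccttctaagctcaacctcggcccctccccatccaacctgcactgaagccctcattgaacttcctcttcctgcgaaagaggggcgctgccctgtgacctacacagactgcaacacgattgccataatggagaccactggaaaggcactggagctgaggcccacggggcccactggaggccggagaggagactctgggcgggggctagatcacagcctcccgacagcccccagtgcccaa
The Hoxc4 window held no match to these letters. The motif of Pbx and Hox dimers, TGATTNAT, was in 2.82% of all promoters and in Hoxa2 and Hoxd11. A direct repeat element of retinoic acid receptors was in 0.00913% of all promoters and in none of the Hox promoters held here. No binding was measured.

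A pair of scores described each scraping. The ileal score was the mean log2 ratio of 7 genes of the distal small intestine, among them Fabp6, the ileal bile acid binding protein, Slc10a2, its apical bile acid transporter, and Fgf15, the hormone induced by bile acids there. It ran from -0.69 in HF replicate 3 to 0.97 in HF replicate 2. Its members did not move as 1 block: their correlation with the score was 0.848 for Fabp6, 0.806 for Slc10a2, 0.751 for Slc51a and 0.615 for Fgf15, but 0.404 for Cubn, 0.381 for Clec2h and 0.232 for Slc51b. The muscle score was the mean of 9 measured smooth muscle genes such as Myh11 and Actg2. It ran from -1.24 in HF-Q replicate 2 to 1.02 in HF replicate 7. Over all mice the scores were nearly unrelated to each other (r = 0.0839, rho = 0.0464, permutation p = 0.705 and 0.832, n = 23). Within slides 1, 2 and 3 their r was -0.114, 0.609 and 0.0166. The muscle score went with markers of fibroblasts (r = 0.873, rho = 0.933), enteric neurons and glia (r = 0.826, rho = 0.791) and endothelium (r = 0.680, rho = 0.716), and against adipocyte markers (r = -0.647, rho = -0.680). Adjusted over 19 relations, the permutation p of each of these r was at most 0.00494. It also went against enterocyte markers (r = -0.519, rho = -0.566, permutation p = 0.0110 and 0.00535, adjusted 0.0348 and 0.0203; r = -0.464 without the 2 farthest mice). A high score thus went with a higher mean of markers of several cell types beneath the epithelium and a lower mean of enterocyte markers. Slopes on it were above 0 for 8 of 8 fibroblast, 4 of 6 neuron and glia and 4 of 5 endothelial genes. They were below 0 for 6 of 7 enterocyte genes, 0 of them at adjusted p under 0.05 (limma). Kdr (-0.18), Sox10 (-0.051), Elavl4 (-0.026) and Epcam (0.048) ran against their lists. Mylk, 1 of the 9 genes of the muscle score, ran the other way (r = -0.219 with the score).

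Libraries stand apart in this respect. HF replicates 3 and 1 had the lowest ileal scores (-0.69 and -0.47) and the highest proximal scores (0.66 and 0.64), the mean of 8 genes of the proximal small intestine such as Gata4 and Lct. Values without both mice therefore stand beside the main results on the ileal score. The muscle score was alike in mice that carry the same replicate number in both diets (r = 0.696, rho = 0.818 over 11 pairs, permutation p = 0.0155 and 0.00302; r = 0.849 without the 2 farthest pairs). The labels do not say what the number stands for. Its part in the muscle result cannot be told apart from that of the tissue layers.

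The posterior part of the measured B cluster rose with the ileal score. Hoxb8 and Hoxb7 passed the test (limma, Benjamini-Hochberg over 21477 genes), Hoxb9 passed once the muscle score was held, and genes with lower numbers had smaller slopes. Of all genes 0.428% passed (0.377% upward), so that the 2 of 16 Hox members stand beside 92 of 21477. The median slope of the 16 was 0.09 log2 per unit of score, against 0.0057 over all genes.

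Hoxb8 had log2 ratios from -0.56 through a median of 0.018 to 0.57 in HF and from -0.29 through -0.041 to 0.53 in HF-Q. HF replicates 3 and 1 were lowest, HF replicate 2 highest, and the diets overlapped throughout. Its slope was 0.71 ± 0.11 (SE) log2 per unit of ileal score, adjusted p = 0.00129 with limma, the 17th smallest p of all genes. The correlation was r = 0.809 (rho = 0.710, permutation p = 1e-05, the smallest 100000 resamples can give, and 0.0003). Adjusted over the 64 relations computed between Hox genes and 4 scores, these p were 7.11e-05 and 0.00148. Within the 3 slides r was 0.659, 0.950 and 0.908, and without the 2 mice farthest from the median score it was 0.709. Without HF replicates 1 and 3 it was 0.716, and the slope was 0.62 ± 0.14 with adjusted p = 0.0368 by limma. The call held in each of 23 leave-outs of 1 mouse. It was lost with Cy5 alone (slope 0.75, adjusted p = 0.165), with the replicate number as a block (0.71, adjusted p = 0.150) and without the 2 farthest mice (0.77, adjusted p = 0.171), all by limma.

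Hoxb7 spread more widely, from -1.08 through 0.22 to 0.55 in HF and from -0.36 through -0.030 to 0.46 in HF-Q. HF replicates 3 and 1 both lay near -1.1, far below the other 21 mice. Its slope was 0.90 ± 0.19 (adjusted p = 0.0209, limma), with r = 0.703 and rho = 0.558 (permutation p = 0.00029 and 0.00647, adjusted 0.00124 and 0.0188). Within slides r was 0.732, 0.841 and 0.641, and it was 0.580 without the 2 farthest mice. On slide 2, where the scores correlated at 0.609, Hoxb7 and Hoxb8 also went with the muscle score (r = 0.775 and 0.722). The Hoxb7 call rested on single mice. Without both low mice the slope was 0.48 ± 0.18 and the adjusted p 0.457 (limma), and leaving out HF replicate 1, 2, 3 or 7 alone gave 0.0784, 0.0550, 0.206 and 0.0555.

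Hoxb9 had the largest spread of any member, an SD of 0.44 over the 23 mice. It ran from -1.07 through 0.28 to 0.64 in HF and from -0.26 through 0.26 to 0.89 in HF-Q, a 3.89-fold range between the lowest and the highest mouse. HF replicates 3 and 1 were again lowest and HF-Q replicate 7 highest. Its slope was 0.82 ± 0.20 (adjusted p = 0.0802, limma), and 0.78 ± 0.18 with the muscle score held (adjusted p = 0.0388, limma). Without both low mice the latter was 0.35 ± 0.16, adjusted p = 0.534. The call was also lost when HF replicate 1, 3, 4 or 5 or HF-Q replicate 3, 6, 7, 8, 9 or 10 was left out alone, with an adjusted p up to 0.302 (limma, without HF replicate 3). Hoxb6 had slopes of 0.49 ± 0.15 alone and 0.44 ± 0.11 with muscle held, adjusted p = 0.285 and 0.0669 (limma).

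With the muscle score held, 0.484% of all genes passed, and 3 of 16 Hox genes did: Hoxb8 (slope 0.69, adjusted p = 0.000819, limma), Hoxb7 (0.85, adjusted p = 0.00329, or 0.0546 without HF replicate 2) and Hoxb9. Along the cluster the slopes on this fit ran -0.044 for Hoxb2, -0.063 for Hoxb3, 0.14 for Hoxb4, 0.28 for Hoxb5 and 0.44 for Hoxb6, up to 0.85 for Hoxb7. The place of Hoxb3 in this order depends on the probe. On the ileal score alone a second Hoxb3 probe had 0.29 ± 0.15 (adjusted p = 0.840 over probes, limma). The probe in use had -0.070 there, and Hoxb4 had 0.19. The climb was smaller without HF replicates 1 and 3. Without both, Hoxb6 had 0.27, Hoxb7 0.52 ± 0.13 (adjusted p = 0.0989) and Hoxb9 0.35, and Hoxb8 was the one Hox gene that passed (0.64 ± 0.13, adjusted p = 0.0220, limma), beside 0.526% of all genes. The lower numbers then had -0.13 (Hoxb2), -0.091 (Hoxb3), 0.16 (Hoxb4) and 0.21 (Hoxb5). The intervals overlap between neighbours, and the order of slopes was not tested. In clusters A and C no gene passed. The slopes of Hoxc4 and Hoxc6 were 0.017 and 0.034, that of Hoxa7 was 0.11, and Hoxa9, a paralog of Hoxb9, had 0.076 ± 0.093.

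Of the 7 ileal genes, Slc10a2, Fabp6 and Slc51a went with this group and the other 4 were more weakly related to it. Slc10a2 correlated over the mice with Hoxb7 at 0.856, with Hoxb9 at 0.820 and with Hoxb8 at 0.770, and Fabp6 with them at 0.820, 0.805 and 0.757. Slc51a, a subunit of the basolateral bile acid transporter and measured in 22 mice, gave 0.730, 0.616 and 0.746 in the same order. Fgf15 correlated at 0.118, 0.115 and 0.375, Slc51b at 0.292, 0.228 and 0.283, Clec2h at 0.326, 0.196 and 0.266, and Cubn at -0.041, -0.106 and 0.175. With Slc10a2 alone in place of the score, Hoxb6, Hoxb7, Hoxb8 and Hoxb9 all passed, as did 3.97% of all genes. With Fabp6 alone the same 4 passed beside 0.526% of all genes. These correlations share their libraries, and in Hoxb7 and Hoxb9 both low mice weigh on each of them.

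The proximal score gave the opposite sign, but it was not a plain mirror of the ileal score. Both scores correlated at r = -0.412 and rho = -0.0929 (permutation p = 0.0544 and 0.671). Within slides that r was -0.753, -0.808 and 0.115. Hoxb8 correlated with the proximal score at r = -0.576. Hoxb7 correlated with it at r = -0.821 (rho = -0.659, permutation p = 2e-05 and 0.00072, adjusted 0.000116 and 0.00329) and Hoxb9 at r = -0.792 (rho = -0.529, permutation p = 2e-05 and 0.0102, adjusted 0.000116 and 0.0261). Within slides the values were -0.989, -0.907 and -0.510 for Hoxb7 but -0.976, -0.932 and -0.0982 for Hoxb9. The 2 mice farthest out on this score are the same HF replicates 1 and 3, and without them r was -0.543 and -0.438. The negative sign was not particular to these genes. The proximal score correlated with Hoxb6 at -0.716, with Hoxa7 at -0.61 and with Hoxc6 at -0.513, and Hoxb3 alone lay above 0 (0.209). It also ran against the muscle score (r = -0.355, rho = -0.351, permutation p = 0.0987 and 0.103).

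**Figure D2:**
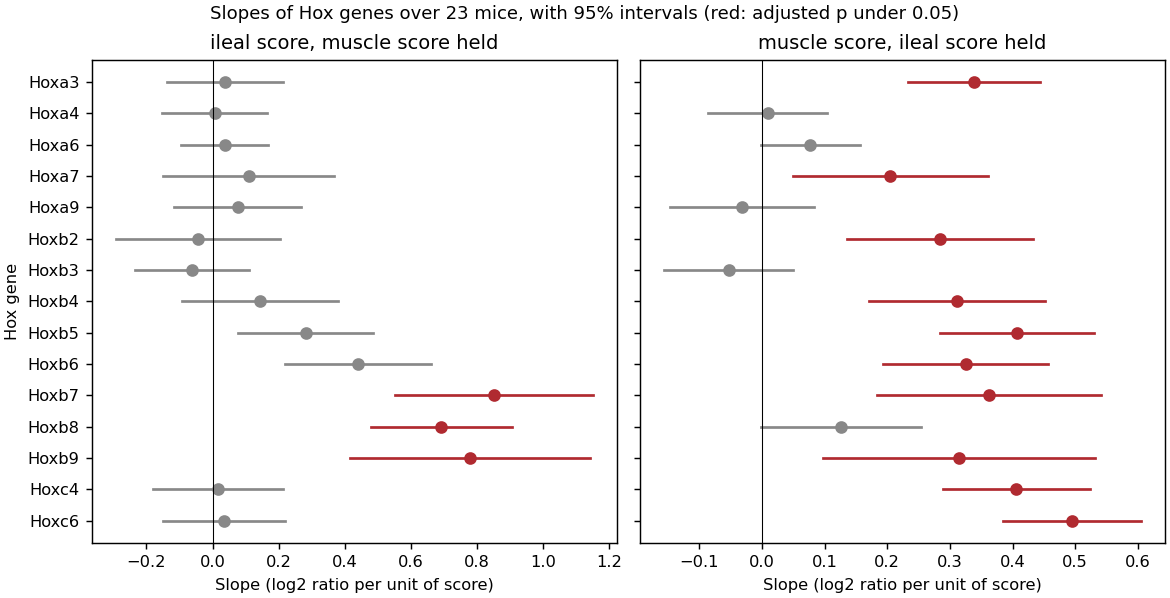
Slopes of measured Hox genes over 23 mice in one fit with both scores, in log2 ratio per unit of score, with 95% intervals; red marks an adjusted p under 0.05 (limma, Benjamini-Hochberg over 21477 genes). On the ileal score the slopes of cluster B climb from -0.044 for Hoxb2 to 0.85 for Hoxb7 (0.52 without HF replicates 1 and 3) and 3 genes pass; on the muscle score 10 pass, all upward.

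Rises with the muscle score were spread over clusters A, B and C. They took in 9 of 16 Hox genes, all upward, led by Hoxc6, Hoxb5, Hoxc4, Hoxb7, Hoxb6 and Hoxa3. The score moved much of the transcriptome, 23.6% of all genes and 15.4% upward. The median Hox slope was 0.30 log2 per unit of score against -0.011 over all genes. With the replicate number as a block, within which same-numbered mice of both diets are compared, none of the 9 calls was left, and 20 genes passed in all. The blocked slopes were 0.41 for Hoxc6, 0.40 for Hoxc4, 0.37 for Hoxa3 and 0.62 for Hoxb5, with adjusted p from 0.134 to 0.288 (limma), but 0.13 for Hoxb6 and 0.038 for Hoxb7 (adjusted p = 0.820 and 0.974).

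Hoxc6 followed it most closely. Its log2 ratios ran from -0.38 through 0.12 to 0.47 in HF and from -0.64 through -0.027 to 0.34 in HF-Q, with HF-Q replicate 3 lowest and HF replicate 7 highest. The slope was 0.50 ± 0.052 (adjusted p = 3.68e-07, limma), the 58th smallest p of all genes. The correlation was r = 0.901 and rho = 0.933 (permutation p = 1e-05 each, adjusted 7.11e-05 and 0.000107). Within slides r was 0.888, 0.961 and 0.971, and it was 0.889 without the 2 farthest mice.

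Hoxc4, the other measured gene of cluster C, ran from -0.12 through 0.17 to 0.57 in HF and from -0.40 through 0.0013 to 0.29 in HF-Q. The lowest values were those of HF-Q replicates 1, 2 and 3. The slope was 0.41 ± 0.055 (adjusted p = 2.2e-05, limma), with r = 0.847 (rho = 0.865, permutation p = 1e-05 each, adjusted 7.11e-05 and 0.000107), within slides 0.874, 0.915 and 0.903, and 0.804 without the 2 farthest mice. Hoxa3, known for the pharyngeal arches, lay between -0.27, 0.049 and 0.18 (lowest, median, highest) in HF and between -0.61, -0.076 and 0.28 in HF-Q. The same 3 HF-Q mice were lowest. Its slope was 0.34 ± 0.050 (adjusted p = 4.56e-05, limma), with r = 0.835 (rho = 0.840, permutation p = 1e-05 each, adjusted 7.11e-05 and 0.000107) and 0.816 without the 2 farthest mice.

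Hoxb5, which has a known role in the enteric nervous system, ran from -0.50 through 0.15 to 0.68 in HF and from -0.34 through -0.18 to 0.42 in HF-Q. HF replicate 1 was lowest and HF replicate 7 highest. Its slope was 0.42 ± 0.067 (adjusted p = 0.000117, limma), with r = 0.799 (rho = 0.781, permutation p = 1e-05 and 4e-05, adjusted 7.11e-05 and 0.00032) and 0.719 without the 2 farthest mice. Hoxb6 ran from -0.54 through 0.21 to 0.54 in HF and from -0.35 through 0.17 to 0.36 in HF-Q, with a slope of 0.35 ± 0.082 (adjusted p = 0.0039, limma). Hoxb7, also tied to the ileal score, had a muscle slope of 0.41 ± 0.13 (adjusted p = 0.0287, limma), and 0.0585 without HF replicate 7 or 0.0515 without HF-Q replicate 2.

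The other 3 that passed were Hoxb4 (0.32, adjusted p = 0.002), Hoxb2 (0.28, adjusted p = 0.00571) and Hoxa7 (0.21, adjusted p = 0.042), all by limma. Hoxa7 sat at the threshold and lost its call in 13 of 23 leave-outs of 1 mouse. Hoxb8, the gene that followed the ileal score most closely, had 0.16 ± 0.10 and an adjusted p of 0.261. Hoxb9 had 0.35 ± 0.14 (adjusted p = 0.0651), and 0.31 ± 0.11 with the ileal score held (adjusted p = 0.0329, limma). The lone other change with that term was this added call, 10 of 16 in all, each upward, beside 15.3% of all genes upward. Hoxa4, Hoxa6, Hoxa9 and Hoxb3 did not pass in either fit, with slopes from -0.057 (Hoxb3) to 0.079 (Hoxa6) on the muscle score alone.

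Fibroblast markers went with the same genes as the muscle score. Their mean, over 8 genes such as Col1a1 and Dcn, correlated with Hoxa3 at r = 0.903, with Hoxc6 at 0.892, with Hoxc4 at 0.866 and with Hoxb4 at 0.793 (rho = 0.823, 0.898, 0.861 and 0.817; permutation p = 1e-05 for each r, adjusted 7.11e-05). Without the 2 farthest mice r was 0.828, 0.847, 0.845 and 0.817. With Hoxb8 it was 0.167. The parts of muscle and fibroblast genes in these associations cannot be told apart.

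Hoxb3 was the one Hox gene with more than 1 probe kept, and its probes disagreed. The probe in use, the brighter one (20 arrays), had a muscle slope of -0.057 ± 0.050, while the second, above background on 12 arrays, had 0.35 ± 0.064 (adjusted p = 0.000562 over probes, limma). The correlation of both probes over the 23 mice was -0.404. They lie at chr11:96207114-96207173 and chr11:96209002-96209061 of mm9. The level of Hoxb3 is therefore uncertain.

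**Figure D3:**
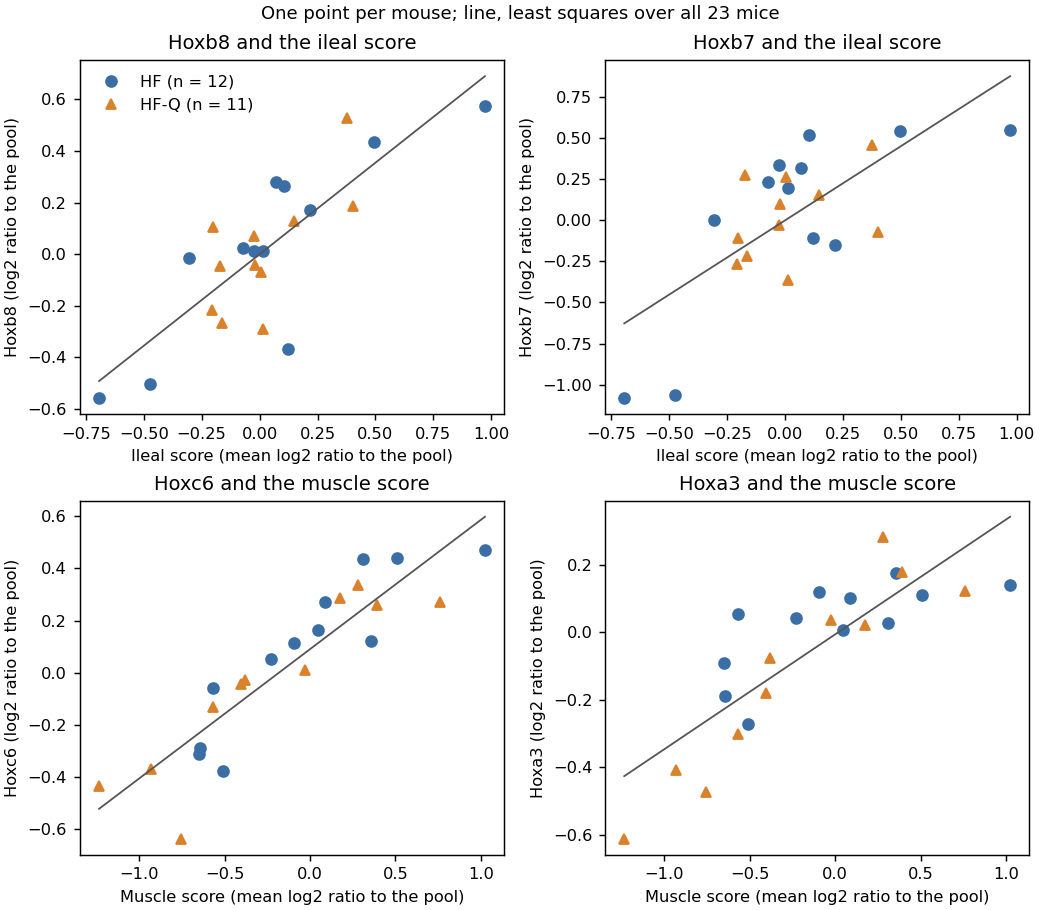
Log2 ratio to the pool of Hoxb8 and Hoxb7 against the ileal score and of Hoxc6 and Hoxa3 against the muscle score, one point per mouse (12 HF, 11 HF-Q), with a least squares line over all 23. HF replicates 1 and 3 form the lower left corner of both ileal panels, where Hoxb7 lies near -1.1, and mice of both diets lie along the same lines.

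Members also varied with each other. Over the 120 pairs of measured Hox genes the median r across the 23 mice was 0.381, and 95 pairs were positive. The pairs share their libraries, and 14 of 16 members had slopes above 0 on the muscle score. No value over pairs of all genes stands beside this count. These are therefore descriptions, and co-variation beyond that of other genes was not tested. Hoxb6, Hoxb7, Hoxb8 and Hoxb9 formed the tightest group, with r from 0.765 to 0.923 (median 0.818 over 6 pairs), highest for Hoxb6 with Hoxb7. After both scores were taken off, the median of these 6 pairs was 0.558 and Hoxb6 with Hoxb7 kept 0.817. Hoxa3, Hoxb2, Hoxb4, Hoxb5, Hoxc4 and Hoxc6 had a median of 0.728 over 15 pairs, and 0.343 after the scores. Hoxc4 with Hoxc6 gave 0.878 before and 0.496 after.

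Nearness in the cluster went with likeness in B. The median r within cluster B was 0.808 for 7 adjacent pairs, 0.728 for genes 2 numbers apart, 0.547 for 3, 0.428 for 4 and 0.386 for 5. At 6 (2 pairs) it was -0.021 and at 7 (1 pair) 0.376. Every pair of Hoxb3 within the cluster lay below 0, from -0.504 with Hoxb4 to -0.162 with Hoxb8. Such pairs enter the medians at distances 1 to 6, and 1 of the 2 pairs at 6 was Hoxb3 with Hoxb9 (-0.231). After both scores were taken off, the medians were 0.454 for adjacent pairs, 0.483 at 2, 0.144 at 3, -0.044 at 4 and 0.081 at 5. Within cluster A the median of 15 pairs was 0.149. Paralogs of equal number in different clusters had a median of 0.412 over 9 pairs, beside 0.35 over all 76 pairs between clusters.

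**Figure D4:**
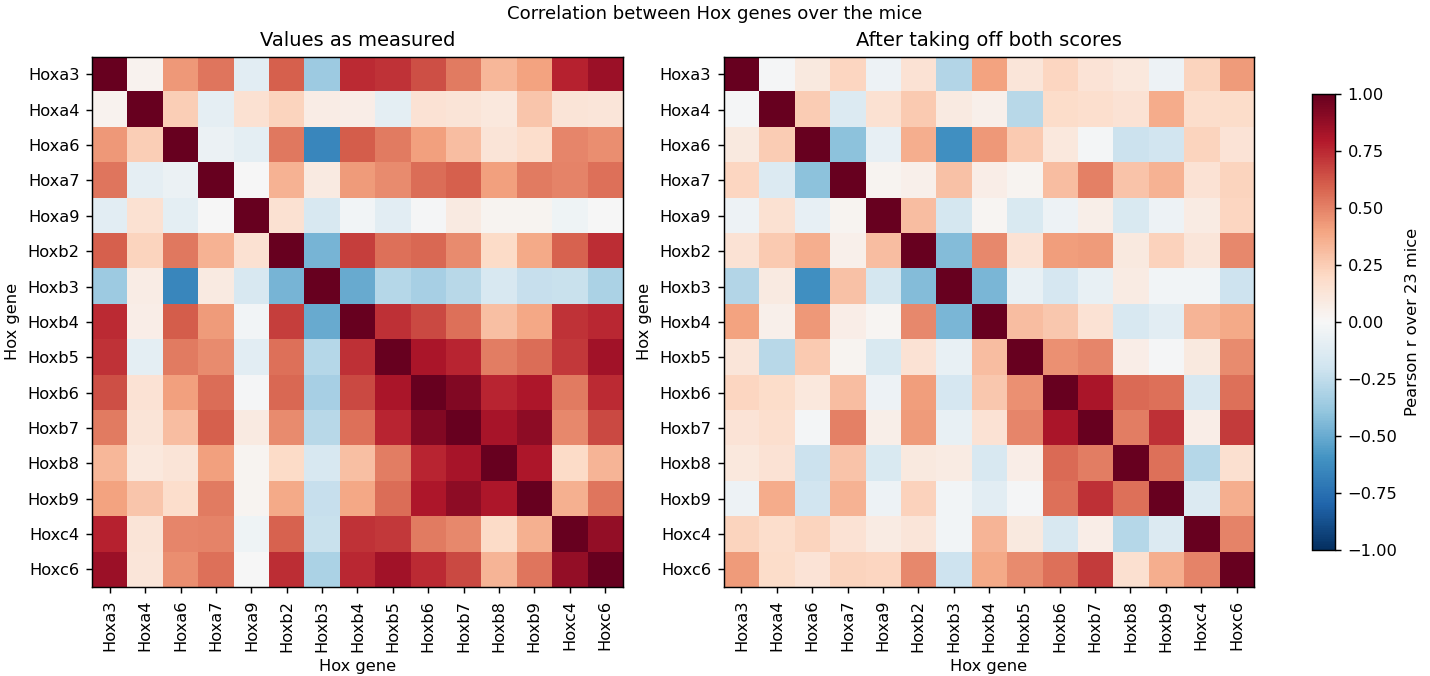
Pearson correlation over 23 mice between measured Hox genes, as measured (left) and after the ileal and muscle scores were taken off (right); red is positive and blue negative. The block from Hoxb6 to Hoxb9 has a median of 0.818 on the left and 0.558 on the right, and Hoxb3 is mostly blue.

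Genes that work with the clusters were taken from fixed lists, and none of them passed on the ileal score or by diet. Of 9 TALE homeodomain genes, whose products bind DNA together with Hox proteins, 8 were measured and 2 rose with the muscle score: Meis1 (slope 0.53, adjusted p = 1.29e-07) and Pbx3 (0.25, adjusted p = 0.014), both by limma. Of 8 ParaHox and flanking homeobox genes, Cdx1, Cdx2, Pdx1 and Evx2 were measured. Cdx1 rose with the muscle score (0.18, adjusted p = 0.00188). On the ileal score Cdx1 had a slope of 0.17 and Pdx1, the duodenal homeobox factor, -0.34, with adjusted p = 0.746 and 0.761 (limma). Of 16 retinoic acid receptors and enzymes 13 were measured. On the muscle score 4 rose and 1 fell, with the retinoic acid synthase Aldh1a2 (0.46, adjusted p = 1.6e-05) and the receptor Rarb (0.30, adjusted p = 0.00025) at the smallest p. Of 20 Polycomb and Trithorax genes, the repressors and activators of Hox chromatin, 19 were measured, and 5 rose and 1 fell, led by Cbx7 (0.32, adjusted p = 0.00541) and Wdr5 (0.15, adjusted p = 0.00998). Of 10 antisense and long non-coding RNAs of the clusters, 4 were on the array and Hoxa11os was measured, with slopes of -0.11 on the ileal and -0.044 on the muscle score. These counts read against 15.4% of all genes rising and 8.19% falling with the muscle score.

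HF-Q was set against HF to see how quercetin affects the intestinal transcriptome, and no Hox gene passed the threshold. Of 16 members 0 passed at adjusted p under 0.05 (limma, Benjamini-Hochberg), as did 0% of all 21477 genes. At an unadjusted p under 0.05 there were 2, Hoxc4 among them, beside 4.53% of all genes. Estimates were below 0, lower in HF-Q, for 14 of 16 members beside 51.9% of all genes, with a median of -0.048 against -0.0038. The members move together over the mice, so this count is not one of independent genes.

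Hoxc4 had a mean of 0.22 ± 0.26 (SD, n = 12) in HF and -0.028 ± 0.24 (n = 11) in HF-Q. Of the 11 HF-Q mice 9 lay below the HF median of 0.17, and the groups overlapped. The difference was -0.25 ± 0.098 (95% interval -0.45 to -0.043), with p = 0.0194 and adjusted p = 0.951 by limma. It was -0.26, -0.37 and -0.13 on the 3 slides. Hoxa6 ran from -0.17 through 0.064 to 0.23 in HF and from -0.13 through -0.062 to 0.12 in HF-Q. The difference was -0.076 ± 0.044 (adjusted p = 0.951, limma), and 0.062 with Cy5 alone.

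Tissue markers moved alongside. All 8 fibroblast genes and all 9 measured muscle genes had lower estimates in HF-Q, none past the threshold. The fibroblast score differed by -0.30 (permutation p = 0.0619) and the muscle score by -0.21 (permutation p = 0.375). With both scores as further terms, 10 of 16 Hox estimates were below 0, Hoxc4 had -0.16 ± 0.055 (adjusted p = 0.618, limma) and Hoxb9 was higher by 0.26 ± 0.11 (adjusted p = 0.618). The ileal score differed by -0.021 between diets (permutation p = 0.888), but by 0.22, 0.23 and -0.51 on slides 1, 2 and 3. Hoxb8 did likewise, with 0.25, 0.18 and -0.46 on the slides and -0.020 ± 0.12 in all, and so did Hoxb9, with 0.37, 0.43 and -0.28. The slope on the ileal score was not found to differ by diet for any Hox gene. The smallest adjusted p was 0.406 (Hoxb5, limma), with 0% of genes past the threshold and 10.9% at an unadjusted p under 0.05. The 95% interval of the diet difference for Hoxb7 ran from -0.36 to 0.35 log2 around an estimate of -0.0071. That estimate rested on HF replicates 1 and 3, without which it was -0.23 ± 0.11 (adjusted p = 0.864, limma).

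**Figure D5:**
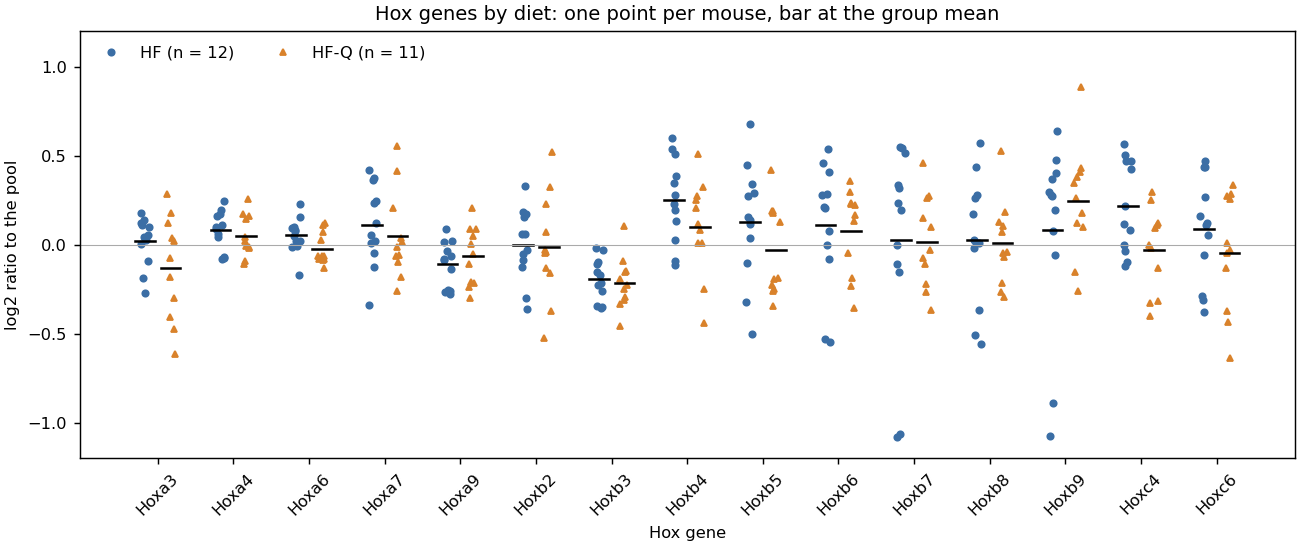
Log2 ratio to the pool of measured Hox genes in every mouse, HF as circles and HF-Q as triangles, with a bar at each group mean. The diets overlap in every gene shown, with the means of Hoxc4 at 0.22 and -0.028, and the 2 lowest HF points in Hoxb7 and Hoxb9 are replicates 1 and 3.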

How the data were processed

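Per the labels, Cy5-labelled RNA of each mouse was hybridised against a Cy3 pool of all mice. Signals were extracted by Agilent Feature Extraction, version 10.7.3.1, per the submitters' processing notes. Per the file headers, the deposited scanner files hold a mean and a background intensity per spot and dye on a linear scale, flags, and a log10 ratio of Cy5 over Cy3. The authors also deposited a log2 table of 31718 spots, with a normalization that no source used here gives. Its first column has a median of 9.11, and medians were not compared between columns. The columns follow log2 Cy5 (r 0.995 to 0.999 over spots) and run with Cy5 high.

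Intensities were background corrected (normexp, offset 50) and loess normalized within arrays with control spots at weight 0, in limma 3.58.1 (R 4.3.3). Outlier spots (260 to 355 per array) were left out, and none fell on the Hox values used. Spots of a probe were averaged, dim probes removed as described for detection, and the brightest probe kept per gene, leaving 21477 genes. Probe names were updated through RefSeq tables for 27235 probes by accession, 3581 by symbol and 565 by synonym, and 24300 kept the file's name. Each fit (diet, each score, both scores) used all 23 arrays with lmFit and eBayes and Benjamini-Hochberg adjustment. The fits with diet or the muscle score as the only term were tested on simulated data. The other fits were not. Correlations used 100000 resamples, two-sided.

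The members, the scores and the gene lists were chosen with earlier results of these data known. Group values are given for members past a threshold (at most 6 per fit), those of the 3 smallest p by diet that are reported here and the 3 of largest SD, and 2 genes of smallest p for other lists. Nothing in the labels says that mice were pooled or housed apart. One member, counted in the totals, is not reported here. Array number limits the precision. Same-numbered mice of the 2 diets had deviations from their group means that correlated from -0.347 to 0.394 over 11 pairs, 5 of them over 0.1. Numbers were not taken as pairs in the main fits. On the muscle score same-numbered mice were alike (r = 0.696 over 11 pairs). The p-values of its main fits therefore treat as independent mice that may not be. Alternatives were the background correction, ratio, centring, channel, filter, probe rule, slide or replicate block, the deposited log2 table, single genes as scores, and leaving out mice.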

Additional observations from a re-analysis of the deposited data

How the results depend on the processing

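The diet comparison kept 0 Hox calls under all 12 alternatives and all 23 leave-outs of 1 mouse. Of the single estimates given, Hoxa6 turned sign, to 0.062 with Cy5 alone. Requiring signal on all arrays left 8 Hox genes, in place of 16. The 2 calls on the ileal score became 1 with the deposited log10 ratio, the all-array filter (under which Hoxb8 was not tested), the log2 table or without both mice of the lowest scores (chosen after seeing the data). They became 0 with Cy5 alone, a replicate block or without the 2 mice farthest from the median score, where 3 genes passed in all, and 4 with Slc10a2 or Fabp6 alone. In those 3 settings the slopes stayed between 0.86 and 0.93 for Hoxb7 and between 0.71 and 0.77 for Hoxb8. Leaving out 1 mouse gave 1 to 2. With the muscle score held the 3 calls became 0 with Cy5 alone or the replicate block, 1 with the all-array filter or without both low mice, and 2 to 4 by leaving out 1 mouse. The 9 muscle calls ran from 7 to 9 without 1 mouse and the 10 of the joint fit from 8 to 10. The replicate block took both to 0, with 20 and 17 genes left in the whole table, and turned Hoxb7 to -0.053 in the joint fit. The slopes of Hoxc6, Hoxc4, Hoxa3 and Hoxb5 stayed at 0.36 or above in both blocked fits, while Hoxb6 had 0.13 and 0.082. That block also holds much of the score itself: 82.4% of the variance of the muscle score lay between numbers, against 47.6% for an even split and 46.9% for the ileal score. The causes of the other changes were not tested. Dim signal limits the genes seen on fewer than 23 arrays.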
